A study of Homo sapiens with 4 samples.

Results

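The core cardiac transcription factors are the DNA-binding proteins that together switch on the muscle genes of the heart, and 10 of them were followed here by symbol: the GATA zinc finger factors GATA4 and GATA6, the homeobox factor NKX2-5, the MADS box factors MEF2A, MEF2C and MEF2D, the basic helix-loop-helix factors HAND1 and HAND2, and the T-box factors TBX5 and TBX20. They are 10 of the 23615 gene symbols in the deposited gene table and have 25 of the 43497 annotated transcripts in the transcript table. All 10 genes were above the level required for testing, as were 12398 genes in all. The cells were RUES2, a human embryonic stem cell line, and poly-A RNA was sequenced from whole, unsorted cultures at day 14, with 2 biological replicates per group. Both groups started from A100/B5 mesoderm, made with activin A at 100 ng/ml and BMP4 at 5 ng/ml. The CPC group was cardiomyocytes from the A100/B5 cardiac progenitor cells. The cardiac protocol used 1 µM XAV-939 on day 3 in only some experiments, and the labels do not say whether these CPC cultures received it. The ECsXAV group was cardiomyocytes from A100/B5 endothelial cells, kept in medium with VEGF from day 2 and given 2 µM XAV-939, a tankyrase inhibitor that blocks Wnt/β-catenin signaling, from day 5 to day 7. The cultures are 1 cell line, and nothing in the labels ties a replicate of one group to a replicate of the other. The comparison asked whether cardiomyocytes reached by these routes carried the same set of factors.

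These proteins act as a mutually reinforcing network. GATA4, NKX2-5 and TBX5 bind one another and sit together on the promoters of contractile and natriuretic peptide genes, MEF2 factors add the muscle program, and HAND factors pair with E proteins to drive growth of the ventricles. In the embryo, HAND1 and HAND2 mark different parts of the forming chambers, and TBX20 both activates muscle genes and represses genes of non-chamber myocardium.

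Values are FPKM, fragments scaled by transcript length and by the mapped fragments of the library, so that levels of different genes can be set side by side. Differences are on the log2(FPKM + 1) scale as CPC minus ECsXAV, and negative values are lower in CPC. A gene was past the criterion with an adjusted p under 0.05 and a fold over 2 in limma. Relative to ECsXAV replicate 1, the depth was 50.1% to 86.9% in the other libraries, and the total depth is unknown. The sample names begin differently in each group and the labels do not say what the prefix marks, so anything it marks cannot be told apart from the group, and in unsorted cultures fewer cells of a type and less RNA per cell cannot be told apart either. Cardiomyocyte markers were high in every library, with a sum over 9 genes of 14081 to 14471 FPKM in ECsXAV and 13712 to 14224 FPKM in CPC. The sum was carried mostly by MYL7 and TNNT2, with MYH6 higher and MYBPC3 lower in CPC. It does not measure the share of cardiomyocytes in a culture.

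All 10 factors were expressed in both groups, between 12.8 and 182 FPKM, and at or above the 63.8th percentile of the tested genes in every library. Of the 10, 0 were past the criterion in limma, beside 2.15% of all tested genes, and 5 had an unadjusted p under 0.05, beside 18.2% of all tested genes. HAND1, HAND2 and TBX20 among these 5 were lower in CPC, and MEF2A and MEF2C were higher. In 7 of the 10 the groups did not overlap, beside 49.8% of all tested genes. The median difference was -0.16 over the 10 factors and -0.0045 over all tested genes, and the median absolute difference was 0.33 against 0.17. Summed over the 10, the factors gave 637 and 656 FPKM in ECsXAV and 495 and 624 FPKM in CPC. The summed levels were thus lower in both CPC libraries, but CPC replicate 2 lay closer to the ECsXAV libraries than to its own replicate. In the plot of FPKM by library the largest gaps between groups are in HAND1, TBX20 and HAND2, followed by MEF2C.

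**Figure D1:**
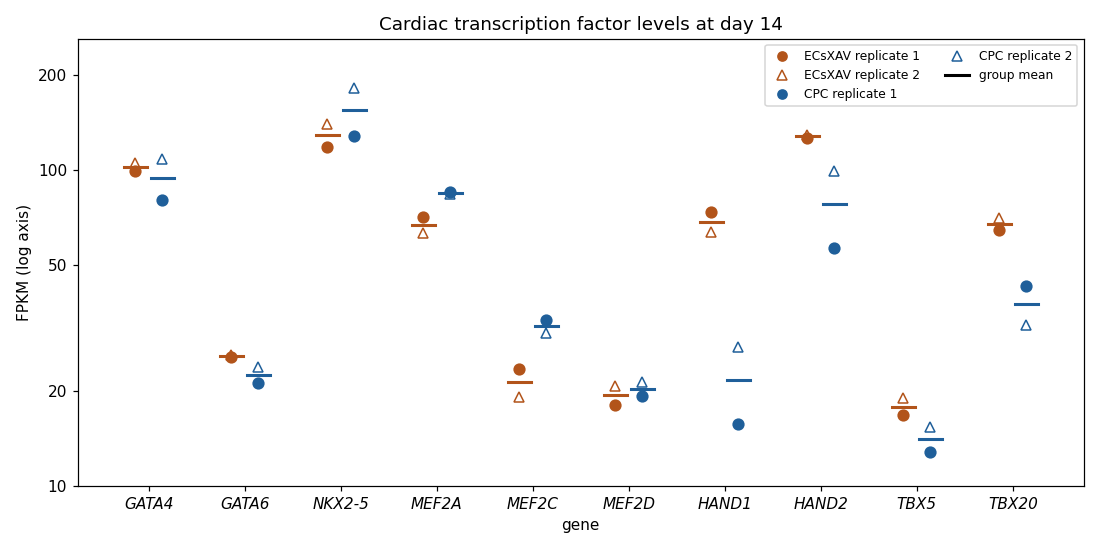
FPKM of the 10 factors on a log axis, with 1 point per library (orange, ECsXAV; blue, CPC; filled circles, replicate 1; open triangles, replicate 2) and a bar at each group mean. For HAND1, both CPC points, at 15.7 and 27.6, lie far below both ECsXAV points, at 73.5 and 63.6, whereas for GATA4, NKX2-5 and MEF2D the points of the groups overlap.

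The order of the levels was led by NKX2-5 in both groups, with a mean of 129 FPKM in ECsXAV and 155 FPKM in CPC, and TBX5 was the lowest, with means of 17.8 and 14.1 FPKM. In ECsXAV, NKX2-5 and HAND2 overlapped at the top, GATA4 stood apart below them, and HAND1, TBX20 and MEF2A followed, with HAND1 overlapping TBX20 and TBX20 overlapping MEF2A. GATA6 was the seventh, and MEF2C, MEF2D and TBX5 closed the order, each overlapping the next. In CPC, HAND2 was the fourth, below GATA4 and MEF2A, although its range overlapped that of MEF2A. HAND1 was the fourth gene in ECsXAV and the eighth in CPC, where its range overlapped those of GATA6 above it and MEF2D below it. MEF2C was the eighth in ECsXAV and the sixth in CPC. MEF2A was at place 6 in ECsXAV and at place 3 in CPC, where its range overlapped those of GATA4 and HAND2. The order thus differed between the groups in the places of GATA4, the HAND genes, MEF2A and MEF2C, a description that carries no test.

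The largest differences were in HAND1, HAND2 and TBX20, and the 250 bases before the RefSeq start of each are shown to let the regulatory sequence be read beside the values. RefSeq promoter entries (GRCh38.p14) matched 8 of the 10 factors, and each stretch shown was found exactly once in GRCh37, the build of hg19, on the minus strand. Capitals mark GATAA on either strand, the core letters bound by GATA factors, which 20.4% of 35116 promoters of the same length hold.
HAND2, chr4:174451381-174451630: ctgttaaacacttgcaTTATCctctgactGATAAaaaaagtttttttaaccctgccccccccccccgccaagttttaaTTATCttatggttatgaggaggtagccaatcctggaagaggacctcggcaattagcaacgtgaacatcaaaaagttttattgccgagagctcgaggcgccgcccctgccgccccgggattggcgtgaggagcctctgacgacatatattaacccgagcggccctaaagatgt
HAND1, chr5:153857788-153858037: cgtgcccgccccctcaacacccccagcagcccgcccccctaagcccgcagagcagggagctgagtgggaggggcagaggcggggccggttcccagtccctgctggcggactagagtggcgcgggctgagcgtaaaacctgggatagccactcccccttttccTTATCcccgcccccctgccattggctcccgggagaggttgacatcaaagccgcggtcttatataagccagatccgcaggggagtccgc
TBX20, chr7:35293712-35293961: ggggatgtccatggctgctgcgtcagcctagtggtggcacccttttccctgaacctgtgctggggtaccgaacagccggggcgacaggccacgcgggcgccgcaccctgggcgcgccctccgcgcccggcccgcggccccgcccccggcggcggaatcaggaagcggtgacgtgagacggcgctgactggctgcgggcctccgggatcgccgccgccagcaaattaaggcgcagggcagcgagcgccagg
The HAND2 stretch held 3 such matches, with first bases 234, 221 and 172 bases before the start, the HAND1 stretch held 1, at 88 bases, and the TBX20 stretch held 0. The other letters searched on both strands were AAGTG for NKX factors, found in 37.6% of promoters, TAAAAATA for MEF2 factors, found in 2.09%, CATCTG for HAND factors, found in 12.2%, and GGTGT for T-box factors, found in 32.2%. AAGTG occurred once before HAND2, at 242 bases, and GGTGT once before HAND1, at 234 bases, and the remaining letters were not in these windows. The GC content was 49.6% before HAND2, 67.2% before HAND1 and 74.0% before TBX20. These matches describe the letters and were not tested for binding.

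HAND1, on chromosome 5 from 153854532 to 153857787 (GRCh37, minus strand), is a basic helix-loop-helix factor of the left ventricle and outer curvature. It had 73.5 and 63.6 FPKM in ECsXAV and 15.7 and 27.6 FPKM in CPC. Both CPC libraries lay far below both ECsXAV libraries. The mean in ECsXAV was 3.17 times the mean in CPC, 68.5 ± 6.99 against 21.6 ± 8.41 FPKM (SD, n = 2 each), and the difference was -1.67 (95% interval -2.38 to -0.95, adjusted p = 0.0577 in limma). HAND1 was the only factor of the 10 whose difference was over 2-fold, and its adjusted p was just over the threshold. When microRNA and other short RNA genes, and genes at 0 in 1 replicate but at 5 FPKM or more in the other, were left out (chosen with the data in view), HAND1 was past the criterion (adjusted p = 0.0015 in limma), as were 2.82% of the 12065 genes then tested. In that fit HAND1, TBX20 and MEF2C had an adjusted p under 0.05, beside 8.93% of the genes tested.

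HAND2, on chromosome 4 from 174446120 to 174451380, is the partner of HAND1 best known from the right ventricle and second heart field. It had 126 and 129 FPKM in ECsXAV and 56.6 and 99.0 FPKM in CPC. The groups did not overlap, but the CPC replicates lay farther apart than the nearer of them lay from ECsXAV. The difference was -0.76 (standard error 0.28, adjusted p = 0.247 in limma), with an interval from -1.48 to -0.05. In both HAND genes CPC replicate 2 was above CPC replicate 1, by 1.76-fold for HAND1 and 1.75-fold for HAND2, and these replicate gaps were larger than those of 97.1% and 97.3% of all tested genes. The level of both HAND genes thus differed between the CPC cultures by nearly the same factor. Without CPC replicate 1, the differences were -1.28 for HAND1 and -0.36 for HAND2, and without CPC replicate 2 they were -2.06 and -1.16.

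The proportion of the HAND genes differed between the groups with little spread within them. HAND1 made up 36.8% and 33.0% of the summed HAND1 and HAND2 FPKM in ECsXAV and 21.7% and 21.8% in CPC. The CPC replicates were nearly identical, and both lay below the ECsXAV replicates by more than the ECsXAV replicates differed. HAND2 was 1.72 and 2.03 times HAND1 in ECsXAV and 3.61 and 3.59 times HAND1 in CPC. The share of HAND1 was 13.2 percentage points apart between the groups (34.9 ± 2.63% against 21.7 ± 0.0629%, SD, n = 2 each), and the exact permutation test gave p = 0.33, the smallest two-sided p that 2 libraries against 2 allow.

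The antisense partner of HAND2 is listed in the deposited table under its older symbol NBLA00301 and is named HAND2-AS1 by RefSeq. This long noncoding RNA starts inside HAND2 and runs away from it on the opposite strand, from 174448421 to 174580847 on chromosome 4 (GRCh37), so that the gene spans share 2960 bases. It had 48.4 and 37.8 FPKM in ECsXAV and 20.1 and 13.5 FPKM in CPC. As with HAND2, both CPC libraries were below both ECsXAV libraries, but here CPC replicate 1 was the higher of its pair, whereas for HAND2 it was the lower. The difference was -1.32 (standard error 0.23, adjusted p = 0.0615 in limma). The methods name strand for the read counts but not for the FPKM, so it was not assumed here that reads of HAND2 and of its partner were kept apart where the exons overlap. TBX5-AS1, which overlaps TBX5 over 312 bases, was at 0.618 and 0.787 FPKM in ECsXAV and at 0.242 and 0.231 FPKM in CPC, under the level required for testing.

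TBX20, on chromosome 7 from 35242042 to 35293711, is a T-box factor needed for chamber growth. It had 64.5 and 70.5 FPKM in ECsXAV and 42.8 and 32.3 FPKM in CPC. The groups did not overlap, and here CPC replicate 2 was the lowest library, the opposite of the HAND genes. The difference was -0.84 (standard error 0.17, interval -1.28 to -0.41, adjusted p = 0.0825 in limma). The mean in ECsXAV was 1.80 times the mean in CPC.

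TBX5, on chromosome 12 from 114791716 to 114846247, activates atrial and left ventricular genes together with NKX2-5 and GATA4. It had 16.7 and 19.0 FPKM in ECsXAV and 12.8 and 15.4 FPKM in CPC. Both CPC libraries were below both ECsXAV libraries, but the difference did not pass the test. The difference was -0.32 (standard error 0.14, adjusted p = 0.315 in limma). The paper instead names TBX5 among the cardiac genes that differed significantly between these groups. Its test used read counts, with an FDR under 0.05 and a fold over 2. Read counts were not used here, and the source of this disagreement was not tested. The paper lists HAND2, GATA4, MEF2C and NKX2-5 among the cardiac genes with similar expression in these groups, and none of these was past the criterion here. Of the summed TBX5 and TBX20 FPKM, TBX5 made up 20.6% and 21.2% in ECsXAV and 23.0% and 32.3% in CPC. The share was higher in both CPC libraries, with most of the gap from CPC replicate 2 (exact permutation p = 0.33).

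**Figure D2:**
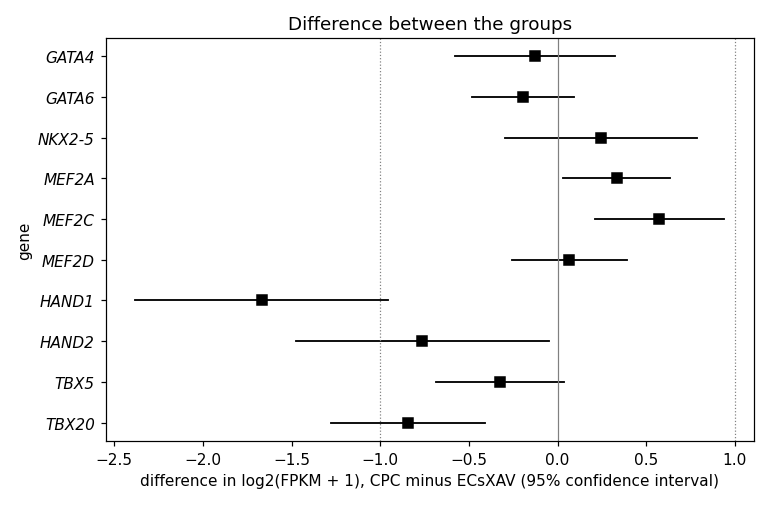
Difference of each factor in log2(FPKM + 1), CPC minus ECsXAV, as squares with 95% confidence intervals from limma, a solid line at 0 and dotted lines at a 2-fold difference. The interval of HAND1 reaches from -2.38 to -0.95, those of HAND2 and TBX20 cross the 2-fold line on the ECsXAV side, and those of the other 7 factors lie between the dotted lines.

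Among the MADS box factors, which bind AT-rich sites of muscle genes, MEF2C and MEF2A were higher in both CPC libraries. MEF2C, on chromosome 5 from 88012934 to 88200074 and the MEF2 gene needed earliest in the heart, had 23.4 and 19.1 FPKM in ECsXAV and 33.5 and 30.5 FPKM in CPC. Its groups did not overlap, with a mean of 32.0 ± 2.11 FPKM in CPC and 21.3 ± 3.09 FPKM in ECsXAV (SD, n = 2 each). The difference was 0.57 (standard error 0.14, interval 0.21 to 0.94, adjusted p = 0.124 in limma). MEF2A, on chromosome 15 from 100105622 to 100256693 and the most abundant MEF2 gene here, had 71.1 and 63.1 FPKM in ECsXAV and 85.3 and 84.1 FPKM in CPC. The CPC replicates were nearly equal and both above ECsXAV, with a difference of 0.33 (standard error 0.12, adjusted p = 0.231 in limma). MEF2D (chromosome 1, 156433519 to 156470571) had 18.0 and 20.7 FPKM in ECsXAV and 19.2 and 21.4 FPKM in CPC, and the groups overlapped. MEF2D differed by 0.07 (interval -0.26 to 0.39, adjusted p = 0.833 in limma), which leaves no difference over 2-fold in either direction inside the interval.

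Of the summed MEF2 FPKM, MEF2C made up 20.8% and 18.5% in ECsXAV and 24.3% and 22.4% in CPC, and MEF2D 16.0% and 20.1% against 13.9% and 15.7%. MEF2A kept 61.3% to 63.2% in all 4 libraries. The share of MEF2C was thus 3.68 percentage points higher in CPC, with an exact permutation p of 0.33 as the smallest possible.

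GATA4, on chromosome 8 from 11534468 to 11617511, is the main zinc finger factor of heart muscle, and it had 99.4 and 105 FPKM in ECsXAV and 80.2 and 108 FPKM in CPC. The ECsXAV values lay between the CPC values. The difference was -0.13 (interval -0.58 to 0.32, adjusted p = 0.757 in limma). GATA6, on chromosome 18 from 19749550 to 19782491 and partly redundant with GATA4, had 25.6 and 26.0 FPKM in ECsXAV and 21.2 and 23.8 FPKM in CPC. Its groups did not overlap, but the difference was small, at -0.19 (interval -0.48 to 0.09, adjusted p = 0.449 in limma). GATA4 made up 79.5% and 80.1% of the summed GATA4 and GATA6 FPKM in ECsXAV and 79.1% and 82.0% in CPC, a share whose range in CPC enclosed that in ECsXAV.

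NKX2-5 (chromosome 5, 172659112 to 172662314) is the homeobox factor that marks cardiac progenitors and stays on in heart muscle. It had 118 and 140 FPKM in ECsXAV and 128 and 182 FPKM in CPC, and the groups overlapped. The difference was 0.24 (interval -0.30 to 0.78, adjusted p = 0.603 in limma). NKX2-5 and GATA4 had CPC replicate gaps of 1.42-fold and 1.35-fold, both with replicate 2 above replicate 1. For 7 of the 10 factors, GATA4, GATA6, NKX2-5, MEF2A, MEF2C, MEF2D and TBX5, the 95% interval excluded a difference of 2-fold or more in both directions. These intervals are from FPKM, and that of TBX5 is at odds with the paper's call on read counts.

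**Figure D3:**
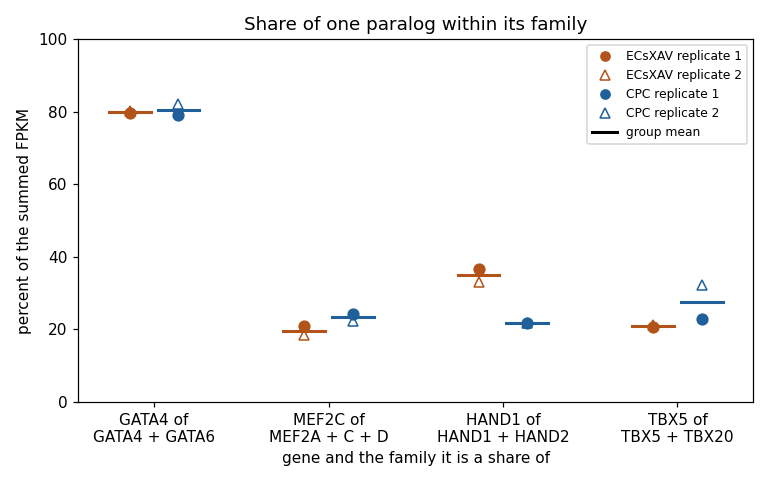
Percent of the summed FPKM of a family taken by 1 paralog in each library, for GATA4, MEF2C, HAND1 and TBX5 (orange, ECsXAV; blue, CPC; circles, replicate 1; triangles, replicate 2; bars, group means). HAND1 is at 36.8% and 33.0% of the HAND genes in ECsXAV and at 21.7% and 21.8% in CPC, while GATA4 lies between 79.1% and 82.0% in every library.

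The transcript table was used to see which annotated forms of each factor were read. GATA4, GATA6, HAND1 and HAND2 have 1 transcript each, so their transcript values equal the gene values. Of the 25 transcripts, 20 had a mean of at least 1 FPKM and were tested, and 0 of these were past the criterion in limma, beside 0.0727% of all tested transcripts. At an unadjusted p under 0.05 there were 6 of the 20, 3 in each direction, beside 13.1% of all tested transcripts. Cufflinks divides reads shared by overlapping transcripts by an estimate, so that a transcript value has more error than its gene total, and this error is not part of the replicate spread given here.

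TBX20 has a shorter and a longer annotated form. The shorter form, NM_001166220, had 19.1 and 21.9 FPKM in ECsXAV and 7.95 and 2.01 FPKM in CPC, whereas the longer form, NM_001077653, had 45.4 and 48.6 FPKM against 34.8 and 30.2 FPKM. Both forms were lower in both CPC libraries, and the shorter one by more. As a share of TBX20, NM_001166220 was 29.6% and 31.1% in ECsXAV and 18.6% and 6.25% in CPC (exact permutation p = 0.33). The CPC replicates differed by more in this share than the nearer of them differed from ECsXAV. The differences were -2.05 (standard error 0.58, adjusted p = 0.310 in limma) for NM_001166220 and -0.52 (standard error 0.12, adjusted p = 0.256 in limma) for NM_001077653.

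For MEF2C, NM_001193349 had 0.683 and 0.783 FPKM in ECsXAV and 2.82 and 5.26 FPKM in CPC, or 2.91% and 4.11% of MEF2C against 8.41% and 17.2%. This minor form was higher in both CPC libraries, with a difference of 1.50 (standard error 0.33, adjusted p = 0.236 in limma). The main forms of MEF2C, NM_001193350, NM_001193348 and NM_002397, had shares of 22.9% to 38.4% each that overlapped between the groups. For MEF2A, NM_001130928 had 7.56 and 7.58 FPKM in ECsXAV and 15.6 and 38.3 FPKM in CPC. In CPC replicate 2 it was the leading form, with 45.6% of MEF2A, whereas NM_001130926 led in the other 3 libraries with 56.6% to 61.4%. The MEF2A gene total was nearly equal in the CPC replicates, and CPC replicate 2 stood apart only in the estimated split between the forms.

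For MEF2D, NM_001271629 made up 46.4% and 41.3% in ECsXAV and 53.2% and 68.9% in CPC, and the groups did not overlap although the gene total did. For NKX2-5, the main form NM_004387 took 71.5% to 81.1% in every library. The minor NKX2-5 form NM_001166176 was at 10.3, 7.48 and 17.0 FPKM in 3 libraries and at 0.122 FPKM in CPC replicate 2. TBX5 was read almost wholly as NM_181486, with 95.9% to 98.4% in every library. The plot of transcript shares shows CPC replicate 2 as the library with the most distinct shares for MEF2A, MEF2D and TBX20.

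**Figure D4:**
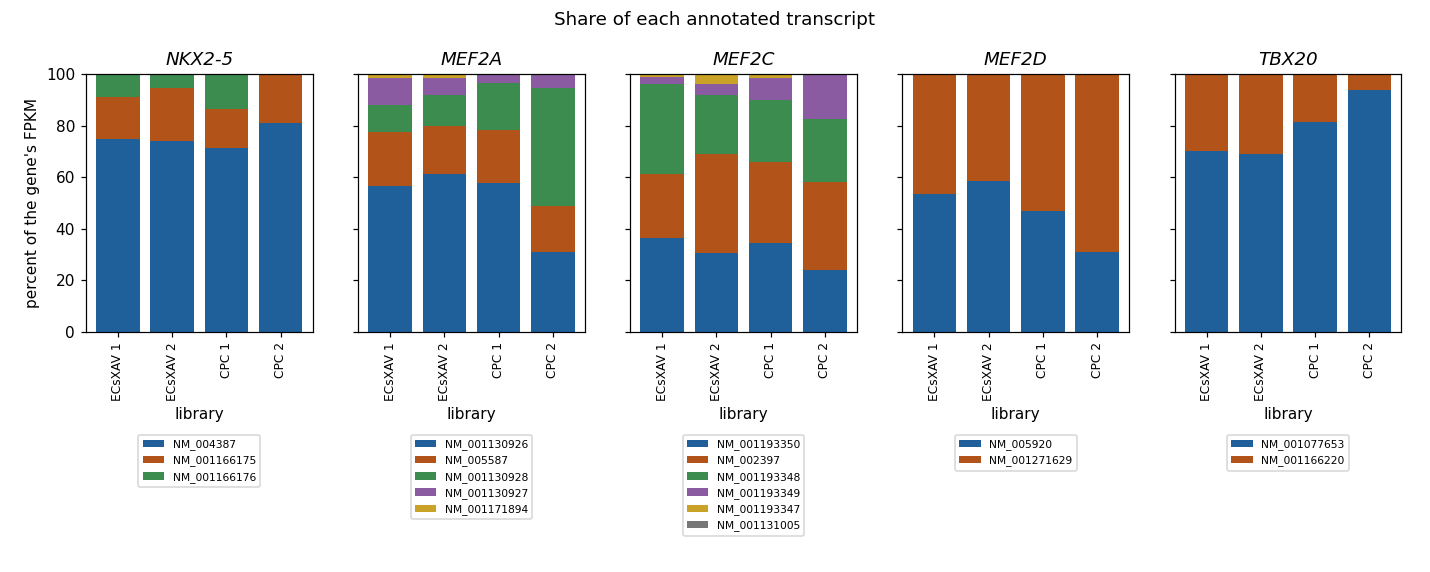
Stacked bars of the percent of a gene's FPKM assigned to each annotated transcript in the 4 libraries, for NKX2-5, MEF2A, MEF2C, MEF2D and TBX20, each bar summing to the gene total. NM_001166220 of TBX20 is at 29.6% and 31.1% in ECsXAV and at 18.6% and 6.25% in CPC, and NM_001130928 of MEF2A reaches 45.6% in CPC replicate 2.

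The factors work with cofactors, repressors and close relatives, and of a list of 59 such genes 47 were tested. Of these, 21 had an unadjusted p under 0.05, 14 higher and 7 lower in CPC, beside 18.2% of all tested genes. Past the criterion was 1 of the 47, which is near the share of 2.15% over all tested genes. It was HOPX, a homeodomain protein that does not bind DNA and restrains SRF. HOPX had 13.1 and 12.5 FPKM in ECsXAV and 0.992 and 0.900 FPKM in CPC (log2 fold change -2.83, adjusted p = 0.0029 in limma). NKX2-5, a known upstream regulator of HOPX, overlapped between the groups, and whether its level bears on HOPX was not tested. With an adjusted p under 0.05 and less than 2-fold there were MEIS2, a homeobox partner of HOX factors, at 53.6 and 54.4 FPKM against 115 and 99.8 FPKM, and ID1, an inhibitor that binds the E protein partners of HAND factors, at 22.6 and 26.4 FPKM against 46.6 and 49.5 FPKM. MEIS2 and ID1 were both higher in CPC. Their differences were 0.97 (adjusted p = 0.0345) and 0.95 (adjusted p = 0.0382) in limma.

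The other ID genes and the E proteins bear on the HAND factors because they share binding partners. ID4 had 3.32 and 3.68 FPKM in ECsXAV and 17.1 and 8.97 FPKM in CPC (adjusted p = 0.0745 in limma). ID3 had 38.7 and 45.0 FPKM against 76.1 and 68.8 FPKM (adjusted p = 0.0584 in limma). Both were higher in both CPC libraries without passing the test. The E proteins TCF3, TCF4 and TCF12 differed by -0.01, -0.15 and 0.24, none with an adjusted p under 0.05. HEY2, a ventricular Notch target and repressor, had 46.8 and 47.6 FPKM in ECsXAV and 17.6 and 26.2 FPKM in CPC (adjusted p = 0.0706 in limma), below ECsXAV in both libraries as the HAND genes were. FOXM1, a cell cycle factor, had 4.29 and 3.14 FPKM against 1.16 and 1.61 FPKM (adjusted p = 0.0795 in limma). ID3 and the E proteins were named after their values were seen. Over the 47 tested cofactors the median difference was 0.12, with 28 higher and 19 lower in CPC, beside -0.0045 over all tested genes.

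Close relatives outside the set were also read, and they were picked after their values were seen. GATA5 had 12.5 and 12.9 FPKM in ECsXAV and 16.4 and 17.4 FPKM in CPC (difference 0.39, adjusted p = 0.147 in limma). The T-box repressors of the nonchamber myocardium, TBX2 and TBX3, were likewise higher in both CPC libraries, whereas TBX5 and TBX20 were lower in both, as was TBX18. TBX2 had 19.7 and 17.0 FPKM against 44.7 and 28.9 FPKM, and TBX3 had 1.96 and 2.47 FPKM against 6.46 and 4.17 FPKM. Their differences of 0.94 and 0.95 did not pass the test (adjusted p = 0.124 and 0.110 in limma). MEF2B, at 1.96 to 2.45 FPKM, and NKX2-6, at 29.2 to 38.8 FPKM, overlapped between the groups.

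Genes known as transcriptional targets of 1 or more of the factors in heart were read from the same libraries. Of a list of 50 such targets, 48 were tested and 10 were past the criterion, 9 lower and 1 higher in CPC, beside 2.15% of all tested genes. The list overlaps genes picked in the original work from these libraries, so its count is not independent evidence of a direction. The natriuretic peptide genes NPPA and NPPB, joint targets of GATA4, NKX2-5 and TBX5, were 264 and 331 FPKM in ECsXAV against 26.1 and 32.4 FPKM in CPC, and 108 and 122 FPKM against 6.07 and 6.84 FPKM. Their differences, -3.30 (adjusted p = 0.0060) and -3.96 (adjusted p = 0.0009) in limma, were larger in size than that of any of the 10 factors. Among sarcomere genes, MYH7, the slow heavy chain, fell by 2.52, MYL2, the ventricular light chain, fell by 2.42, and MYBPC3, a thick filament protein, fell by 1.04 on the log2 scale from ECsXAV to CPC. MYH6, the fast heavy chain and the one target past the criterion that was higher in CPC, had 855 and 857 FPKM in ECsXAV and 2070 and 1901 FPKM in CPC.

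Other targets past the criterion included GJA1, a gap junction protein, ANKRD1, a stress-responsive titin partner, and TMEM88, an inhibitor of Wnt signaling downstream of GATA factors. GJA1 had a difference of -2.21, ANKRD1 of -1.73 and TMEM88 of -1.38. Over the 48 tested targets the median difference was -0.37, with 39 lower and 9 higher in CPC. By comparison, the median over the 10 factors themselves was -0.16, with 6 lower and 4 higher in CPC.

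The genes with the profile nearest to HAND1 over the 4 libraries, by the Euclidean distance of log2(FPKM + 1) values centred on each gene's mean, were S100A10, PTTG1 and CRYAB, at distances of 0.22, 0.24 and 0.26. CRYAB, a small heat shock protein of muscle, had 291 and 282 FPKM in ECsXAV and 58.6 and 98.7 FPKM in CPC, with CPC replicate 2 above replicate 1 as for HAND1. For TBX20 the nearest were TCTEX1D1, UBR4 and GUCY1A3, at 0.06, 0.12 and 0.14, and for HAND2 CABYR, KCNK3 and C1orf61, at 0.07, 0.08 and 0.11. The genes near HAND2 were read at no more than 2.05 FPKM. These distances rest on 4 libraries and are a description.

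Some markers of other cell types, but not of every list, were also past the criterion, and the counts stand beside 2.15% of all tested genes. Of 6 tested fibroblast and epicardial markers of 14, 3 were past the criterion and lower in CPC, COL1A1, COL3A1 and LUM, and the summed level of the list was 194 to 229 FPKM in ECsXAV and 106 to 109 FPKM in CPC, carried mostly by the collagens. PDGFRA and POSTN of that list had differences of 0.19 and 0.15 that did not pass the test. Of 7 tested smooth muscle markers of 9, TAGLN was past the criterion and lower in CPC, and the list summed to 315 to 350 FPKM against 201 to 220 FPKM, with most of the gap from TAGLN and CNN1. The median difference of the smooth muscle list was -0.07, and LMOD1 was higher in both CPC libraries, at 31.7 and 30.0 FPKM against 18.6 and 20.2 FPKM (adjusted p = 0.0600 in limma). Of 4 tested hepatic and endoderm markers of 16, AFP, APOA2 and TTR were past the criterion and lower in CPC. The list summed to 36.1 to 44.6 FPKM against 17.5 to 19.5 FPKM. Most of the CPC sum was APOA1, the remaining tested marker, which did not pass the test (difference -0.18, adjusted p = 0.530 in limma). APOA1 had 20.6 and 17.9 FPKM in ECsXAV and 15.9 and 17.8 FPKM in CPC. Of the 16, 11 were under 1 FPKM in every library. Of the other lists, 0 of 6 tested endothelial and blood markers of 22 were past the criterion in limma. Of these 6, 1 had an unadjusted p under 0.05, HBE1, beside 18.2% of all tested genes. HBE1 had 2.13 and 4.55 FPKM in ECsXAV and 0.338 and 0.184 FPKM in CPC (adjusted p = 0.0660 in limma). Most of that list was low, with 15 of the 22 under the level required for testing and 1 more, PTPRC, at 0 in all libraries, while EGFL7 had 14.6 and 16.9 FPKM in ECsXAV and KDR was at 7.06 to 10.8 FPKM over the libraries. Of 2 tested neural crest and neural markers of 10, TUBB3 was past the criterion and lower in CPC, and NES differed by 0.03. Of 4 tested paraxial and skeletal muscle markers of 14, UNCX was past the criterion and higher in CPC. TBX6, ACTA1 and DES of that list had differences of 0.56, 0.10 and -0.20 that did not pass the test. Past the criterion were 0 of 2 tested pluripotency markers, and 1 of the 2 had an unadjusted p under 0.05. The cardiomyocyte markers past it were MYH6, higher in CPC, and MYBPC3, lower. Of the epicardial factors, WT1 and TCF21 were at most 0.142 FPKM in every library, and TBX18 was at 1.49 and 1.49 FPKM in ECsXAV and 0.444 and 0.348 FPKM in CPC, under the level required for testing in its mean. HAND1, HAND2, GATA4, GATA6 and TBX20 are also read in some of these cell types in the embryo, and the part of such cells in their values was not tested.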

How the data were processed

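The authors made the deposited gene and transcript FPKM values with Cufflinks 2.1.1 and UCSC annotation on hg19, and the submitters' processing notes also list TopHat 1.3.3. The methods state strand-specific counting, with reads of several alignments left out, for read counts only, and neither is stated for the FPKM. Read counts were not used here. Symbols with several loci were represented by the locus with the highest mean, and each of the 10 factors had 1 row. The relative depth of the libraries came from the FPKM steps of genes at 0.005 to 0.1 FPKM. Log2(FPKM + 1) values of genes, and separately of transcripts, with a mean of at least 1 FPKM were tested with limma 3.58.1 in R 4.3.3, with an intensity trend and two-sided p-values adjusted by Benjamini-Hochberg over all tested features. The added 1 understates differences of low values. The script was tested on simulated data. The factors, lists and tests were chosen with earlier results of these data known. Named were all 10 factors and their transcripts, listed cofactors and targets past the criterion or with the largest differences, the 3 nearest profiles of 3 factors, and antisense partners. One listed target is not reported here by name. Coordinates are from GENCODE 44 lifted to GRCh37. Alternatives were another pseudocount, filter, scaling, variance prior, source table or locus choice, the replicate block, and each replicate left out. Tables were made in Python 3.11.15 with pandas 2.3.3 and plots with matplotlib 3.10.9.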

Additional observations from a re-analysis of the deposited data

How the results depend on the processing

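Over 15 alternatives for each of the 10 factors, 143 of 150 differences kept their direction and their side of the criterion. The direction could change only with another pseudocount or scaling or with a library left out. The other settings left each difference as it was or nearly so and could move only its adjusted p, so the count overstates how far the direction was tried. HAND1 was past the criterion in 3 alternatives, with a pseudocount of 0.1 (-1.71, adjusted p = 0.0485 in limma), with robust eBayes (-1.67, adjusted p = 0.0229) and without short RNA genes (-1.67, adjusted p = 0.0015), so that 1 factor was past it there in place of 0. Its adjusted p ranged from 0.0015 to 0.255. The robust and short RNA settings were added after seeing the data, and the cause of these shifts was not tested. Leaving out 1 library, which leaves the other of its group to vary like the rest, turned the direction of GATA4 (-0.34 to 0.085, opposite without CPC replicate 1), NKX2-5 (-0.0073 to 0.50, opposite without CPC replicate 2) and MEF2D (-0.028 to 0.16, opposite without ECsXAV replicate 1 and without CPC replicate 2, at -0.0058), and of the transcripts NM_001130926 (-0.58 to 0.31), NM_001166175 (-0.28 to 0.51, also -0.16 without ECsXAV replicate 1), NM_001166176 (-3.13 to 0.88), NM_001193348 (-0.076 to 0.70), NM_002052 (-0.34 to 0.085) and NM_004387 (-0.064 to 0.62). The share of GATA4 then ranged from -0.718 to 2.19 percentage points and that of MEF2A from -1.37 to 0.484. Factors with an unadjusted p under 0.05 numbered 2 to 7 on leaving out 1 library, with 2 without ECsXAV replicate 2 and 3 without ECsXAV replicate 1. Targets past the criterion numbered 1 to 4, with 1 without CPC replicate 1, and 1 with no filter. Cofactors past it numbered 2 with quantile normalization, 3 with robust eBayes and 3 without short RNA genes. All genes past it numbered 20 with no filter, 152 at a mean of at least 5 FPKM and 50 to 118 on leaving out 1 library.

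The replicate block gave 176 genes past the criterion in place of 266, 0 of the 10 factors and an adjusted p of 0.0808 for HAND1, and it changed no other call among the factors and their transcripts. The labels state no pairing, and the differences between replicates 1 and 2 of the groups correlated across genes with a Pearson r of 0.0349 and a Spearman rho of 0.356, and of 0.303 and 0.378 without short RNA genes. With 2 libraries per group, a factor that missed the threshold is not shown to be equal.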
